A study of Homo sapiens with 6 samples.

Results

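The comparison set SHC1 knockdown against NCOA3 knockdown in MDA-MB-231, a human cell line long established from a breast cancer without hormone receptors or HER2 amplification (triple-negative). Its members are the 4 libraries labelled with these knockdowns of the 6 in the series: cells transfected with an siRNA against SHC1 (siSHC1) and collected at 24 h or 48 h, and cells transfected with an siRNA against NCOA3 (siNCOA3) and collected at the same times. Each siRNA has 1 library at each time, so that the pairs at 24 h and 48 h stand in for replicates. The remaining 2 libraries, from cells given a control siRNA (siControl), were not used in the difference, although they enter the estimate of the spread. All 6 libraries share the cell line and a transfection, and the sequence or number of siRNAs per target is not given in the sources used here. Of 20111 genes in the table, 11699 with at least 1 FPKM (fragments scaled to transcript length and library size) in at least 2 libraries were tested.

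SHC1 encodes an adaptor that binds phosphorylated receptor tyrosine kinases, among them the EGF receptor, and recruits GRB2 and SOS, which activate RAS and the ERK cascade. NCOA3 encodes a coactivator of the p160 family, which binds ligand-activated nuclear receptors and other transcription factors and brings histone acetyltransferases to their target genes. Both have been studied as drivers of breast cancer growth. A direct comparison of the knockdowns asks where the transcriptomes that they leave behind differ, when both cultures have received an active siRNA.

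The line's markers fitted its label in most respects. VIM ran from 887 to 1020 FPKM and CD44 from 473 to 596 FPKM over the 6 libraries, PGR was listed at 0 in all of them, and ESR1 stayed at or below 0.0922 FPKM. ERBB2 transcripts stood at 26.9 to 35.5 FPKM. Of the 6 blood cell markers 5 were below 1 FPKM in every library, with CD14 at 3.24 to 7.51 FPKM. Of the 5 fibroblast markers 3 were below 1 FPKM in every library, among them DCN, listed at 0 in all. The fibroblast markers COL1A1, at 2.16 to 7.47 FPKM, and PDGFRB, at 2.07 to 4.18 FPKM, were not. Keratins 8 and 18, which luminal cells share, were present, at 206 to 285 and 160 to 206 FPKM. Total FPKM per library ran from 495518 to 553073, and the number of fragments behind a value is not known.

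The targeted transcripts separated the groups as labelled. SHC1 had 14.7 and 15.5 FPKM in the siSHC1 libraries of 24 h and 48 h, against 109 and 107 FPKM in the siNCOA3 libraries, so that 13.7% and 14.6% was left after scaling between libraries. NCOA3 had 12.7 and 12.5 FPKM in the siSHC1 libraries, against 1.72 and 1.85 FPKM in the siNCOA3 libraries, where 13.4% and 14.7% was left relative to siSHC1. Differences are given as siSHC1 minus siNCOA3 on the scale of log2(scaled FPKM + 1), on which low genes appear to change less than they do. On this scale SHC1 differed by -2.74 ± 0.08 (standard error, SE, limma adjusted p = 6.09e-05) and NCOA3 by 2.29 ± 0.10 (limma adjusted p = 0.000358). Each SE comes from the fit over all 6 libraries, with the spread moderated across genes by limma, and n counts the libraries of each siRNA. Both transcripts lay well apart in the 2 groups at each time, and the siRNAs left similar shares of their targets.

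Words of 7 bases in the 3′ untranslated regions (UTRs) were ranked by the difference between genes with and without them. Among words present in at least 50 genes GCCCATC had the lowest z (-14.75) and GTCAAGA the highest (4.585). The next were CCCATCT (-8.542), which overlaps GCCCATC, and GGGACGC (3.796). GCCCATC also occurs in the coding part of the SHC1 transcript and GTCAAGA in that of NCOA3. Other words near the low end of the ranking occur in these transcripts too, among them TGCCCAT and TTTTAAA in both. TGCCCAT (z of -8.515) overlaps GCCCATC, and TTTTAAA (z of -7.123) is in 49.6% of all 3′ UTRs. Small RNAs are known to lower transcripts whose 3′ UTRs match bases 2 to 8 of the guide strand, which is why sites are shown. Whether GCCCATC and GTCAAGA belong to the siRNAs was not tested. The sites below are in transcripts of GENCODE release 29 (GRCh38), on the transcript strand, 5′ to 3′, with the word in capitals.
SHC1, chromosome 1, coding: gacaatcacttGCCCATCatctctgcggg
ATP6V0C, chromosome 16, 3′ UTR: agtgtcctagtGCCCATCgtctgtttccc
TPD52L2, chromosome 20, 3′ UTR: aggacagtcctGCCCATCcacgcggagat
SLC7A5, chromosome 16, 3′ UTR: acagctcagctGCCCATCccagtccctcg
ITGB1, chromosome 10, 3′ UTR: ccatttgagttGCCCATCttgtttcacac
ZYX, chromosome 7, 3′ UTR: gtctggtcctcGCCCATCctgcagggatt
NCOA3, chromosome 20, coding, site 1: tcctagctcaaGTCAAGAgaaagacccta
NCOA3, chromosome 20, coding, site 2: gcaatgatgtcGTCAAGAatgggtccctc
RPN2, chromosome 20, 3′ UTR: gaaaactgaatGTCAAGAaaaggagtcaa

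In all 1141 genes, 9.75% of those tested, differed between siSHC1 and siNCOA3 (limma, Benjamini-Hochberg adjusted p under 0.05). Of these 625 (5.34%) were higher and 516 (4.41%) lower after siSHC1, and 70 (0.598%) and 44 (0.376%) were at least 2-fold higher and lower. Without a test, 28 genes (0.239%) were at least 2-fold higher at both times and 36 (0.308%) at least 2-fold lower at both times. With libraries scaled to equal totals instead, 512 were higher and 649 lower, and the split between the directions also turned when some libraries were left out. The median of all tested genes was 0.003. Leaving out a single library lowered the number called, to 758 (siSHC1 at 24 h), 327 (siSHC1 at 48 h), 666 (siNCOA3 at 24 h) or 231 (siNCOA3 at 48 h). Of these, 139 were higher and 188 lower without siSHC1 at 48 h, and 99 and 132 without siNCOA3 at 48 h. With no filter on low values 4 genes were called, SHC1, NCOA3, RPN2 and ITGB1, and 3693 had an unadjusted limma p under 0.05. With 1 library per siRNA and time, the spread behind the p-values is how far the siRNA differences change between the times. Separate cultures are not stated in the labels, so that this spread can be technical.

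**Figure D1:**
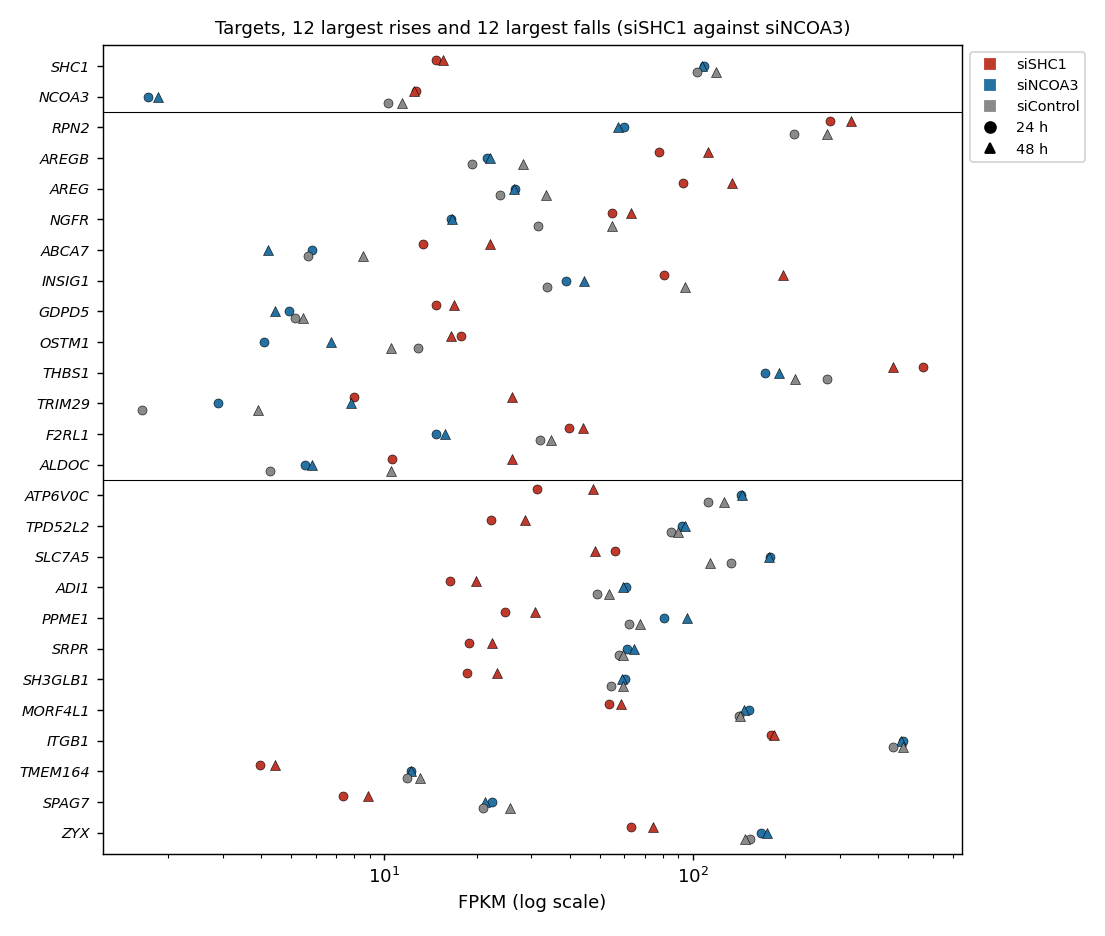
FPKM (log axis) of the 2 targets, the 12 largest rises and the 12 largest falls of siSHC1 against siNCOA3, with 1 point per library (circles 24 h, triangles 48 h) and siControl for orientation. In every row the siSHC1 and siNCOA3 points do not overlap, which follows largely from choosing the largest called differences. The share of all genes without overlap was not counted. In TRIM29 the points nearly touch, at 8 and 7.80 FPKM, while RPN2 lies far apart, at 280 and 326 against 59.9 and 57.3 FPKM.

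The largest rise other than NCOA3 was in RPN2, a subunit of the oligosaccharyltransferase that attaches sugar chains to proteins in the endoplasmic reticulum. RPN2 had 280 and 326 FPKM in the siSHC1 libraries of 24 h and 48 h, against 59.9 and 57.3 FPKM in the siNCOA3 libraries, a difference of 2.36 ± 0.09 (SE, n = 2 each, limma adjusted p = 0.000235), or 5.14-fold on this scale. The groups were far apart at both times, and siControl, at 213 and 273 FPKM, stood near siSHC1. Its 3′ UTR holds GTCAAGA at 2 places. AREG, whose product amphiregulin activates the EGF receptor, had 93.0 and 134 FPKM in the siSHC1 libraries, against 26.6 and 26.4 FPKM in the siNCOA3 libraries, a difference of 2.05 ± 0.13 (limma adjusted p = 0.000943). Here siControl, at 23.8 and 33.5 FPKM, stood near siNCOA3, so that the siSHC1 libraries were the ones apart. AREGB, a near-identical copy whose reads may be split with AREG, differed by 2.06.

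The other named rises divide by where siControl lay. NGFR, the low-affinity neurotrophin receptor, had 54.9 and 63.0 FPKM in the siSHC1 libraries, against 16.5 and 16.6 FPKM in the siNCOA3 libraries, a difference of 1.78 ± 0.15 (limma adjusted p = 0.00262). Relative to siControl NGFR stood at 0.45 after siSHC1 and -1.33 after siNCOA3, and F2RL1, a protease-activated receptor with a difference of 1.41 ± 0.09, stood at 0.29 and -1.13. OSTM1, a partner of a lysosomal chloride transporter, was at 17.8 and 16.5 FPKM after siSHC1, against 4.07 and 6.72 FPKM after siNCOA3. In these genes siNCOA3 was the group farther from siControl. The matrix protein THBS1 (thrombospondin 1), by contrast, had 560 and 447 FPKM in the siSHC1 libraries, against 172 and 191 FPKM in the siNCOA3 libraries, and stood at 1.01 after siSHC1 and -0.46 after siNCOA3 relative to siControl. The phosphodiesterase GDPD5 (1.57 ± 0.12), the lipid transporter ABCA7 (1.62 ± 0.25), INSIG1 (1.59 ± 0.30), which retains sterol sensors in the endoplasmic reticulum, the glycolytic enzyme ALDOC (1.41 ± 0.27) and TRIM29 (1.42 ± 0.18), a protein of basal epithelia, were likewise farther from siControl after siSHC1. TRIM29 was above siControl in both knockdowns, at 2.09 after siSHC1 and 0.67 after siNCOA3.

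Of the 12 largest rises 7 kept their call when any 1 of the 6 libraries was left out. OSTM1 lost it without either siSHC1 library, ABCA7 without the 48 h library of siSHC1 or of siControl, TRIM29 without the siNCOA3 library of 48 h, and INSIG1 and ALDOC without either siSHC1 or either siControl library. INSIG1 then ranged from 1.03 to 2.15 and ALDOC from 0.88 to 1.94. Of the 12 rises, RPN2 alone holds GTCAAGA in its 3′ UTR, and none of the 12 holds GCCCATC.

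The largest fall other than SHC1 was in ATP6V0C, which encodes part of the proton channel in the V-ATPase of lysosomes. ATP6V0C had 31.4 and 47.7 FPKM in the siSHC1 libraries of 24 h and 48 h, against 144 and 145 FPKM in the siNCOA3 libraries, a difference of -1.86 ± 0.14 (SE, n = 2 each, limma adjusted p = 0.00219). TPD52L2 had 22.2 and 28.6 FPKM in the siSHC1 libraries, against 92.3 and 94.7 FPKM in the siNCOA3 libraries, a difference of -1.83 ± 0.11 (limma adjusted p = 0.000911). SLC7A5, the light chain of the LAT1 transporter for large neutral amino acids, had 56.1 and 48.3 FPKM in the siSHC1 libraries, against 178 and 177 FPKM in the siNCOA3 libraries, a difference of -1.73 ± 0.09 (limma adjusted p = 0.000911). The groups did not overlap in any of these, which were chosen as the largest falls. SLC7A5 stood on opposite sides of siControl, at -1.26 after siSHC1 and 0.47 after siNCOA3. PPME1, the methylesterase of the phosphatase PP2A, did the same, at -1.24 and 0.38.

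ITGB1, the integrin beta-1 subunit, had 179 and 184 FPKM in the siSHC1 libraries, against 481 and 473 FPKM in the siNCOA3 libraries, a difference of -1.38 ± 0.06 (SE, n = 2 each, limma adjusted p = 0.000358). The other falls were ADI1 (-1.68), an enzyme of methionine salvage, PPME1 (-1.63), SRPR (-1.55), which docks signal recognition particles at the endoplasmic reticulum, SH3GLB1 (-1.46), the chromatin protein MORF4L1 (-1.38), TMEM164 (-1.33), SPAG7 (-1.31) and ZYX (-1.29), the focal adhesion protein zyxin. After siNCOA3 the 12 genes lay between -0.13 (SPAG7) and 0.47 (SLC7A5) relative to siControl, and after siSHC1 between -1.79 (TPD52L2) and -1.16 (ZYX). All 12 kept their call when any 1 of the 6 libraries was left out. Of the 12 falls 11 carry GCCCATC in the 3′ UTR, SRPR being the exception, and SRPR and TMEM164 hold GTCAAGA.

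The words were more frequent in one direction of change than in the other. Most called genes carried neither word, as did 9629 of all 11277 genes. GCCCATC was in 158 of 503 genes that fell, or 31.4%, in 26 of 605 that rose, or 4.30%, and in 6.89% of those not called, beside 7.85% of all 11277 genes. GTCAAGA was in 79 of the 605 that rose, or 13.1%, in 31 of the 503 that fell, or 6.16%, and in 7.83% of those not called, beside 8.03% of all. The 742 genes with GCCCATC alone had a median difference of -0.147, with -0.145 after siSHC1 relative to siControl, while the 763 with GTCAAGA alone had a median of 0.0625, with -0.0659 after siNCOA3 relative to siControl. The words were chosen by these same differences, so the shares describe them and support nothing. Among the 9629 genes with neither word 502 rose (5.21%) and 326 fell (3.39%), 60 and 12 of them at least 2-fold. Of the 742 with GCCCATC alone 24 rose (3.23%) and 146 fell (19.7%), 2 and 27 at least 2-fold. Of the 763 with GTCAAGA alone 77 rose (10.1%) and 19 fell (2.49%), 7 and 1 at least 2-fold. Of the 143 with both words 2 rose and 12 fell, 0 and 3 at least 2-fold. Thus 326 of the 503 falls and 502 of the 605 rises carried neither word, beside 9629 of all 11277 genes.

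**Figure D2:**
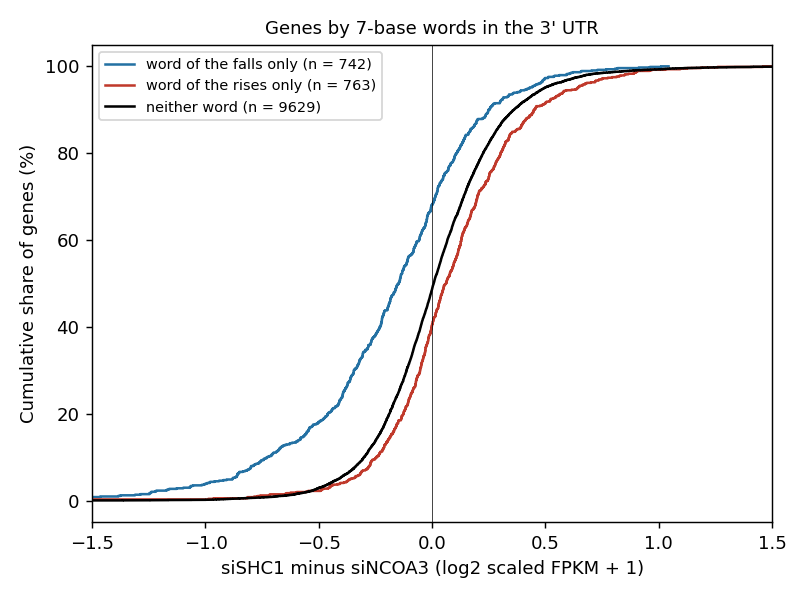
Cumulative share of genes (y axis, %) against the log2 difference of siSHC1 minus siNCOA3 (x axis) for genes with 1 of the 2 words in the 3′ UTR or neither. The curve of the 742 genes with the word of the falls lies left of that of the 9629 with neither, and that of the 763 with the word of the rises lies slightly to its right.

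The EGF receptor fell and 4 of its ligands rose. Of 9 tested members of the list of receptors and ligands 4 rose and 1 fell, or 55.6%, beside 9.75% of all genes. EGFR, the receptor, had 32.9 and 28.7 FPKM in the siSHC1 libraries, against 54 and 52.4 FPKM in the siNCOA3 libraries, a difference of -0.76 ± 0.09 (limma adjusted p = 0.0068). Besides AREG, the ligands HBEGF (1.10 ± 0.11), EREG (1.04 ± 0.13) and TGFA (0.40 ± 0.08) rose. HBEGF had 45.5 and 42.8 FPKM after siSHC1, against 20.04 and 20.64 FPKM after siNCOA3, and siControl lay between them, with HBEGF at 0.61 after siSHC1 and -0.49 after siNCOA3. EREG, at 1.04 after siSHC1 and -0.005 after siNCOA3 relative to siControl, followed the AREG pattern. Other members did not pass: NRG1, a ligand of ERBB3 and ERBB4, stood at -0.59 with 11.4 and 10.8 FPKM after siSHC1, against 16.6 and 18.2 FPKM after siNCOA3, and the ligand BTC stood at 0.42 at 24 h and -0.13 at 48 h. Without the siNCOA3 library of 48 h the ligands called were AREG and HBEGF, TGFA also lost its call without each of the other siSHC1 and siNCOA3 libraries, and the list's median of 0.143 became -0.0261 without the siNCOA3 library of 24 h. HBEGF, TGFA, BTC and EGFR hold GTCAAGA, and of these EGFR fell.

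Among the 15 tested adaptors around SHC1 and SOS, GRB2, the adaptor that SHC1 recruits, rose (0.46 ± 0.09) and SHC3, a paralogue of SHC1, fell (-0.56 ± 0.11) besides SHC1 itself. SHC3 had 4.68 and 5.24 FPKM after siSHC1, against 8.11 and 7.58 FPKM after siNCOA3. Both calls were lost without any 1 of the siSHC1 or siNCOA3 libraries. Of 25 ERK feedback and output genes 2 rose and 1 fell, or 12%, near the share of all genes. PHLDA1, a target of ERK signalling, had 99.7 and 99.6 FPKM after siSHC1, against 48.8 and 48.9 FPKM after siNCOA3 (1.03 ± 0.07, limma adjusted p = 0.00146), and stood at 0.25 and -0.77 relative to siControl. IER3 rose (0.59 ± 0.07), and FOSL1, an AP-1 subunit, fell (-0.56 ± 0.13), a call lost without either 48 h library of the knockdowns or either siControl library, with values of -0.81 to -0.31. Of 17 AP-1 and immediate early factors 3 fell, FOSL1 with the ETS factors ELK4 (-0.99 ± 0.11) and ELK3 (-0.47 ± 0.10). ELK3 lost its call without siSHC1 at 48 h or either siNCOA3 library, while EGR1 stood at -0.53 and did not pass. GRB2 and PHLDA1, which rose, and ELK4, which fell, hold GTCAAGA.

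The list on the NCOA3 side showed few differences beyond NCOA3. Among 14 p160 coactivators and acetyltransferase partners NCOA3 was the one called, and KAT2B (0.34), NCOA7 (0.30) and CREBBP (-0.23) did not pass. Of 23 tested nuclear receptors 2 fell, or 8.70%, beside 4.41% of all genes. They were ESRRA, an orphan receptor of energy metabolism (-0.58 ± 0.10, limma adjusted p = 0.0205), and PPARG, a receptor of lipid metabolism (-0.44 ± 0.11). ESRRA had 25.6 and 23.6 FPKM after siSHC1, against 36.4 and 38.6 FPKM after siNCOA3. PPARG lost its call whichever library was left out and ESRRA without the 48 h library of siSHC1 or siNCOA3.

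**Figure D3:**
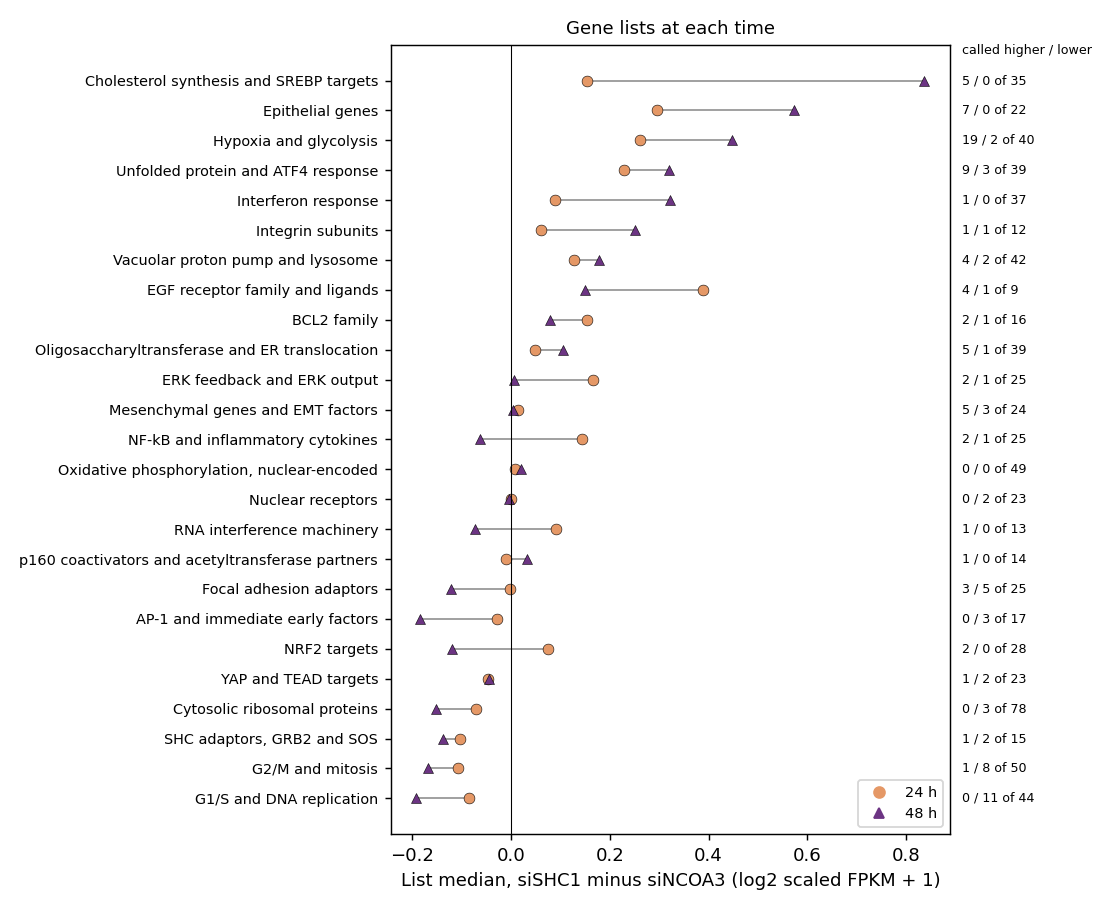
Median log2 difference of siSHC1 minus siNCOA3 in each gene list (x axis), at 24 h (circles) and 48 h (triangles), with the number of tested members called higher and lower at the right. Cholesterol synthesis stands at 0.154 at 24 h and 0.837 at 48 h, and the cell cycle and ribosomal protein lists lie below 0 at both times.

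Cholesterol synthesis genes and other SREBP targets were higher after siSHC1 than after siNCOA3, mostly at 48 h. SREBP factors switch on these genes when membrane sterol is low. Of 35 tested members 34 lay above 0, with a median of 0.487, and 5 rose (14.3%, beside 9.75% of all genes), among them INSIG1 and the pathway's enzymes HMGCS1 (1.10 ± 0.23) and MSMO1 (1.02 ± 0.20). The median was 0.154 at 24 h and 0.837 at 48 h, and 34 of 35 members differed more in favour of siSHC1 at 48 h. INSIG1 had 80.6 and 196 FPKM in the siSHC1 libraries of 24 h and 48 h, against 38.8 and 44.4 FPKM in the siNCOA3 libraries, with 33.7 and 94.6 FPKM in siControl. SCD, the stearoyl desaturase, had 93.4 and 259 FPKM after siSHC1, against 66.3 and 67.0 FPKM after siNCOA3, with 54.4 and 160 FPKM in siControl, and did not pass (1.23 ± 0.40, limma adjusted p = 0.133). The levels were thus higher at 48 h than at 24 h in siSHC1 and siControl, and nearly level in siNCOA3: the list's median change over time was 0.788 in siSHC1, 0.0544 in siNCOA3 and 0.51 in siControl, beside 0.013, 0.0069 and 0.0045 over all tested genes. These changes rest on 1 library each and were not tested.

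The sterol calls depend on single libraries. Without the siSHC1 library of 48 h limma called 0 members higher, with 5 at an unadjusted p under 0.05, without the siNCOA3 library of 48 h 1 was called, and without the 24 h library of siSHC1 or siNCOA3 13 and 19 were called. The list's median lay between 0.205 and 0.802 in these fits. Without the siControl library of 24 h or 48 h 2 and 3 members were called. HMGCS1 ranged from 0.65 to 1.56 and MSMO1 from 0.68 to 1.36, each called in 2 of the 6 fits. HMGCS1 lost its call without either siSHC1 library, siNCOA3 at 48 h or siControl at 24 h, and MSMO1 without either 48 h library of the knockdowns or either siControl library.

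Genes of hypoxia and glycolysis rose as well. HIF factors drive many of them when oxygen is low. Of 40 tested members 19 rose and 2 fell, or 52.5%, beside 9.75% of all genes, with 35 above 0 and a median of 0.321, at 0.261 at 24 h and 0.447 at 48 h. The list's median change over time was 0.288 in siSHC1, 0.004 in siNCOA3 and 0.196 in siControl. CA9, a carbonic anhydrase at the cell surface, had 20.1 and 43.8 FPKM in the siSHC1 libraries, against 10.4 and 11 FPKM in the siNCOA3 libraries (1.41 ± 0.23, limma adjusted p = 0.0208), with 7.19 and 14.4 FPKM in siControl. The neuronal enolase ENO2 had 125 and 163 FPKM after siSHC1, against 68.3 and 58.6 FPKM after siNCOA3 (1.18 ± 0.13, limma adjusted p = 0.00661). ALDOC had 10.6 and 25.9 FPKM after siSHC1, against 5.54 and 5.85 FPKM after siNCOA3. In these genes, chosen for their large differences, both siSHC1 libraries lay above both siNCOA3 libraries. The abundant enzymes GAPDH (0.29) and LDHA (0.36), the prolyl hydroxylases of collagen P4HA1 (0.92) and P4HA2 (0.86) and the angiogenic factor VEGFA (0.41) also rose, outside the named genes and chosen after their values were seen. The pyruvate kinase PKM had 374 and 534 FPKM after siSHC1, against 1030 and 1050 FPKM after siNCOA3, and fell (-1.20 ± 0.11). So did the hexokinase HK1 (-0.69 ± 0.09). PKM and HK1 hold GCCCATC, and PKM also holds GTCAAGA. The number of members that rose was 5 without the 48 h library of siSHC1 or of siNCOA3, 13 without siSHC1 at 24 h or either siControl library, and 18 without siNCOA3 at 24 h. CA9 lost its call without siSHC1 at 48 h or either siControl library, and ENO2 kept it throughout.

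The promoters of the hypoxia genes that rose were read for ACGTG, a form of the core of the HIF motif, on either strand, in windows from 250 bases before to 50 bases after the start in RefSeq (GRCh38.p14). It was in 10 of 16 windows of members that rose, or 62.5%, in 15 of 35 of the whole list, or 42.9%, and in 27.4% of the windows of 9506 tested genes. The core also takes the form GCGTG, and with both forms counted the shares lay closer together, at 81.2% of the members that rose, 74.3% of the list and 64.1% of all. The list is known for HIF targets, so the shares are a description, and a match is not a site in use. The window of CA9, shown because CA9 was among the named members with the largest differences, holds 1 match, in capitals, read as CACGT on the gene's strand (chr9:35673678-35673977, plus strand).
CA9: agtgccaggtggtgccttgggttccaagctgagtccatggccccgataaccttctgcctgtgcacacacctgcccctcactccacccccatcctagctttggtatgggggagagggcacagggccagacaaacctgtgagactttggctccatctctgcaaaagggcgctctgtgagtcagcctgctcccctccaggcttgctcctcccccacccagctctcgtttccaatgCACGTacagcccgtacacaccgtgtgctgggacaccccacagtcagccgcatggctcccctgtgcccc

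**Figure D4:**
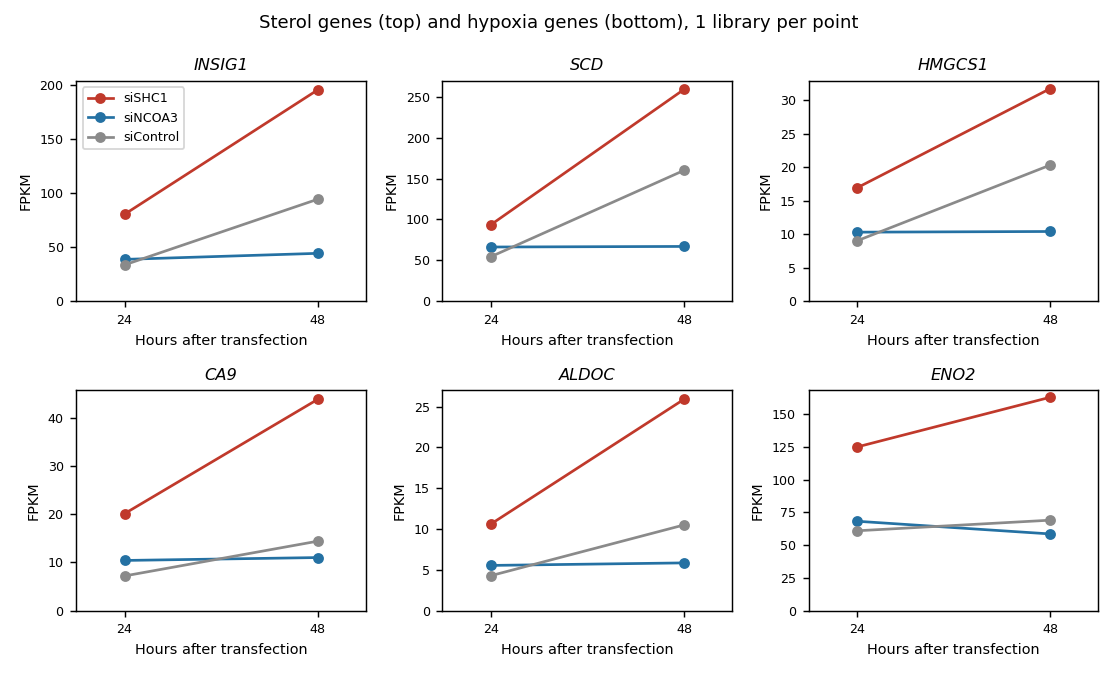
FPKM (y axis, from 0) at 24 h and 48 h (x axis) of 3 sterol genes (top) and 3 hypoxia genes (bottom), with 1 library per point and a line per siRNA. In SCD the siSHC1 points stand at 93.4 and 259 FPKM and the siNCOA3 points at 66.3 and 67.0 FPKM, and in all 6 genes siSHC1 is the highest line.

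Adhesion genes differed in both directions. Of 12 tested integrin subunits 2 were called (16.7%, beside 9.75% of all genes). ITGB1 fell and ITGA5, the alpha chain of the fibronectin receptor that pairs with it, rose. ITGA5 had 93.9 and 127 FPKM after siSHC1, against 55.5 and 58.2 FPKM after siNCOA3 (0.95 ± 0.10, limma adjusted p = 0.00516). Of 25 focal adhesion adaptors 3 rose and 5 fell, or 32.0%, beside 9.75% of all genes. Besides ZYX, the actin crosslinker ACTN1 (-0.86 ± 0.07) and paxillin, PXN (-0.69 ± 0.07), fell, and so did VCL (-0.39) and SRC (-0.40), chosen after their values were seen. FERMT2, which activates integrins, rose, with 37.1 and 28.8 FPKM after siSHC1, against 13.8 and 13.5 FPKM after siNCOA3 (1.22 ± 0.10), and stood at 0.29 after siSHC1 and -0.93 after siNCOA3 relative to siControl. ZYX, ACTN1, PXN, ITGB1, ITGA5 and FERMT2 kept their calls when any 1 library was left out, and ZYX, ACTN1, SRC and ITGB1 hold GCCCATC. The 3 rises and 5 falls of the adaptors became 1 and 3 without any 1 library of either knockdown, and without siSHC1 at 24 h 3 integrin subunits rose. In the list of the 24 mesenchymal genes 5 rose and 3 fell, or 33.3%, beside 9.75% of all genes. COL1A1 rose (0.73 ± 0.12) and ACTA2 fell (-0.95 ± 0.18), both at low levels, with COL1A1 at 6.78 and 7.47 FPKM after siSHC1, against 3.36 and 4.58 FPKM after siNCOA3. Of these COL1A1, which rose, holds GCCCATC. COL1A1 lost its call without the siSHC1 library of 24 h or either siNCOA3 library, and ACTA2 without the siSHC1 library of 48 h or either siNCOA3 library. The list's 5 rises became 1 without siSHC1 at 48 h and 0 by limma without siNCOA3 at 48 h, with 6 at an unadjusted p under 0.05 in each, and its 3 falls became 1 in both fits.

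Epithelial genes lay higher after siSHC1. Of 22 tested members 7 rose (31.8%, beside 5.34% of all genes) and 18 lay above 0. The median was 0.43, at 0.296 at 24 h and 0.573 at 48 h. TRIM29 had 8 and 25.9 FPKM after siSHC1, against 2.90 and 7.80 FPKM after siNCOA3, so that the groups did not overlap but came close. The water channel AQP3 had 7.66 and 10.6 FPKM after siSHC1, against 3.90 and 4.67 FPKM after siNCOA3 (0.94 ± 0.14), a call lost without the siSHC1 library of 48 h or either siNCOA3 library. The junction protein JUP (0.90) and the protease inhibitor SPINT1 (0.79) did not pass. CLDN4, KRT19, CLDN7, KRT7 and KRT80, named after their values were seen, were the other 5, and CDH1 stayed below 1 FPKM in every library. Of the other 5 KRT80 holds GCCCATC. The number that rose was 2 if siNCOA3 at 48 h was left out and 3 if siSHC1 at 48 h was.

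Cell cycle genes lay lower after siSHC1. In the list for G1/S and replication, 11 of 44 tested genes fell, or 25.0%, beside 4.41% of all genes. In it 35 lay below 0, with a median of -0.131. E2F8, a repressor of the E2F family, had 6.85 and 5.39 FPKM after siSHC1, against 14.6 and 12 FPKM after siNCOA3 (-0.99 ± 0.10, limma adjusted p = 0.00366), and CDCA7 (-0.998 ± 0.114), the uracil glycosylase UNG (-0.77 ± 0.10) and E2F2 (-0.70 ± 0.14) fell with it. In the list for G2/M, 8 of 50 genes fell and 1, UBE2S, rose, or 18% beside 9.75% of all genes, with 39 below 0 and a median of -0.131. The mitotic phosphatase CDC25B had 21.9 and 24.7 FPKM after siSHC1, against 56.6 and 57.7 FPKM after siNCOA3 (-1.25 ± 0.08), and the transcription factor FOXM1 had 28.2 and 30.8 FPKM after siSHC1, against 63.6 and 65.8 FPKM after siNCOA3 (-1.09 ± 0.08, limma adjusted p = 0.00146). MYBL2, another mitotic factor, fell by 0.94, and PRC1, of the spindle midzone, by 0.68 on this scale. CDC25B, PRC1 and E2F2 hold GCCCATC, as does UBE2S, which rose, and FOXM1, MYBL2, E2F8, CDCA7 and UNG do not. The 11 of G1/S became 2 if siNCOA3 at 48 h was left out and 3 if siSHC1 at 48 h was, and the 8 of G2/M became 3 in both of these fits. They became 4 without siSHC1 or siNCOA3 at 24 h and 5 without either siControl library, and the 11 became 6 without siNCOA3 at 24 h. UNG lost its call without siNCOA3 at 48 h, PRC1 without either 48 h library and E2F2 without any 1 siSHC1 or siNCOA3 library.

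The unfolded protein and ATF4 list held rises and falls. Of 39 tested members 9 rose and 3 fell, or 30.8%, beside 9.75% of all genes, with a median of 0.249. The chaperones and folding enzymes of the endoplasmic reticulum HSPA5 (0.50), HSP90B1 (0.46), CALR (0.55), PDIA6 (0.62) and HYOU1 (0.46) and the secreted factor MANF (0.69) rose, chosen after their values were seen, along with DDIT4 (0.90 ± 0.18), an inhibitor of mTORC1 signalling, and VLDLR (0.83 ± 0.11). Of these rises HSPA5 holds GTCAAGA. The amino acid transporter SLC7A5 and its heavy chain partner SLC3A2 both fell. SLC3A2 had 101 and 70.6 FPKM after siSHC1, against 160 and 164 FPKM after siNCOA3 (-0.91 ± 0.13, limma adjusted p = 0.0101), and does not hold GCCCATC, which SLC7A5 does. The 9 rises became 1 without the 48 h library of siSHC1 or of siNCOA3 and 6 without siSHC1 at 24 h, and DDIT4 lost its call without either siSHC1 library or siNCOA3 at 48 h (0.55 to 1.25) and VLDLR without siNCOA3 at 48 h. In the list of ER translocation and the oligosaccharyltransferase, 5 of 39 rose and 1 fell, or 15.4%, beside 9.75% of all genes. RRBP1, a ribosome-binding protein of that membrane, had 171 and 182 FPKM after siSHC1, against 87.7 and 85.5 FPKM after siNCOA3 (1.03 ± 0.07), and at 163 and 179 FPKM siControl stood with siSHC1. The catalytic subunit STT3A (0.36), OST4 (0.32) and the translocon subunit SEC61A2 (0.64) also rose; SEC61A2 lost its call without siSHC1 at 48 h or either siNCOA3 library, STT3A without any 1 library of either knockdown, and OST4 whichever library was left out. The 5 rises became 3 without siSHC1 at 24 h and 2 without siSHC1 at 48 h or either siNCOA3 library, near the 5.34% of all genes that rose in the full fit.

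Genes of the BCL2 family, survival and death genes together, differed in both directions, with 2 of 16 higher and 1 lower (18.8%, beside 9.75% of all genes). MCL1, a survival protein with a short half-life, had 42.1 and 40.2 FPKM after siSHC1, against 93.5 and 95.8 FPKM after siNCOA3 (-1.17 ± 0.09, limma adjusted p = 0.00158), and stood at -1.10 after siSHC1 and 0.07 after siNCOA3 relative to siControl. BCL2L1, the gene of BCL-XL, had 162 and 172 FPKM after siSHC1, against 97.6 and 99.7 FPKM after siNCOA3 (0.77 ± 0.07, limma adjusted p = 0.00262), and stood at -0.13 and -0.90. MCL1 was thus low in the siSHC1 libraries and BCL2L1 in the siNCOA3 libraries. PMAIP1, a BH3-only death factor, rose (0.59 ± 0.11), a call lost without siSHC1 at 48 h or either siNCOA3 library. MCL1 and BCL2L1 both hold GCCCATC in the 3′ UTR, and BCL2L1 was higher after siSHC1 than after siNCOA3.

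Of 25 NF-kB and cytokine genes 2 rose and 1 fell, or 12%, near the 9.75% of all genes. CSF1, the macrophage growth factor, had 105 and 126 FPKM after siSHC1, against 48.6 and 56.8 FPKM after siNCOA3 (1.13 ± 0.10, limma adjusted p = 0.00319), with siControl at 76.6 and 125 FPKM. The 3′ UTR of CSF1 holds GTCAAGA. TRAF1 rose (0.53 ± 0.12) and NFKB1 fell (-0.45 ± 0.09); TRAF1 lost its call whichever library was left out, and NFKB1 without any 1 siSHC1 or siNCOA3 library. In the list of interferon response genes 29 of 37 lay above 0, with a median of 0.246. ISG20 (0.81 ± 0.12) was the member that rose (2.70%, beside 5.34% of all genes), while IFIT2 (0.83), IFIT1 (0.69) and IFIT3 (0.66) did not pass. ISG20 lost its call without either 48 h library of the knockdowns, where limma called 0 members, with 7 (without siSHC1) and 6 (without siNCOA3) at an unadjusted p under 0.05 and higher, and without siSHC1 or siNCOA3 at 24 h 7 and 6 members rose.

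Vacuolar pump and lysosome genes lay mostly above 0, at 35 of 42, with a median of 0.158. Of them 4 rose and 2 fell (14.3%, beside 9.75% of all genes). ATP6V0C thus stood apart from the other subunits of the pump, of which ATP6V1E1 (0.52 ± 0.08) and ATP6V0E2 (0.82 ± 0.10) rose. Both ATP6V0C, which fell, and ATP6V0E2, which rose, hold GCCCATC. The sialidase NEU1 had 48.1 and 61.5 FPKM after siSHC1, against 23.2 and 26.6 FPKM after siNCOA3 (1.11 ± 0.09). The protease CTSD (0.43) rose and CTSC (-0.52) fell. ATP6V1E1 and CTSC lost their calls without either 48 h library of the knockdowns, and CTSD without siSHC1 at 48 h, where the 4 rises became 2. Of 78 cytosolic ribosomal proteins 69 lay below 0, with a median of -0.112, and 3 fell (3.85%), near the 4.41% of all genes that fell: RPS16 (-0.86 ± 0.06), RPL35 (-0.38 ± 0.05) and RPL15 (-0.25 ± 0.06). RPS16 had 546 and 502 FPKM after siSHC1, against 962 and 962 FPKM after siNCOA3, and holds GCCCATC. Many of these genes have near-identical pseudogene copies, so that their values are uncertain. RPL35 lost its call without siSHC1 at 48 h, and RPL15 whichever library was left out; 5 members fell without siNCOA3 at 24 h, and 1 or 2 without any other library.

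Of the remaining lists YAP and TEAD targets, at 13.0%, lay near the 9.75% called among all genes. NRF2 targets (7.14%) and the RNA interference machinery (7.69%) were also near it, and oxidative phosphorylation (0%) lay below it. Of 28 NRF2 targets the detoxifying enzyme EPHX1 (0.62 ± 0.09) and TXNRD1 (0.28 ± 0.07) rose. Of 23 YAP and TEAD targets ASAP1 rose (0.62 ± 0.08) and FOXF2 (-0.68 ± 0.12) and FJX1 (-0.57 ± 0.13) fell. Of 13 genes of the RNA interference machinery, which both siRNAs use, TNRC6C rose (0.52 ± 0.11), with AGO2 at 0.29 and DROSHA at -0.26 not passing. TNRC6C holds both GCCCATC and GTCAAGA, and AGO2 holds GTCAAGA. Among 49 nuclear-encoded subunits of oxidative phosphorylation limma called 0, with 1 higher and 6 lower at an unadjusted p under 0.05, and the median of 0.005 turned negative with no scaling, equal totals or upper quartile scaling. Of these 6 named calls ASAP1 and EPHX1 held in 5 and 4 of the 6 fits with a library left out, FOXF2 and FJX1 (-0.76 to -0.38) in 3, TNRC6C in 2 and TXNRD1 in 0.

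**Figure D5:**
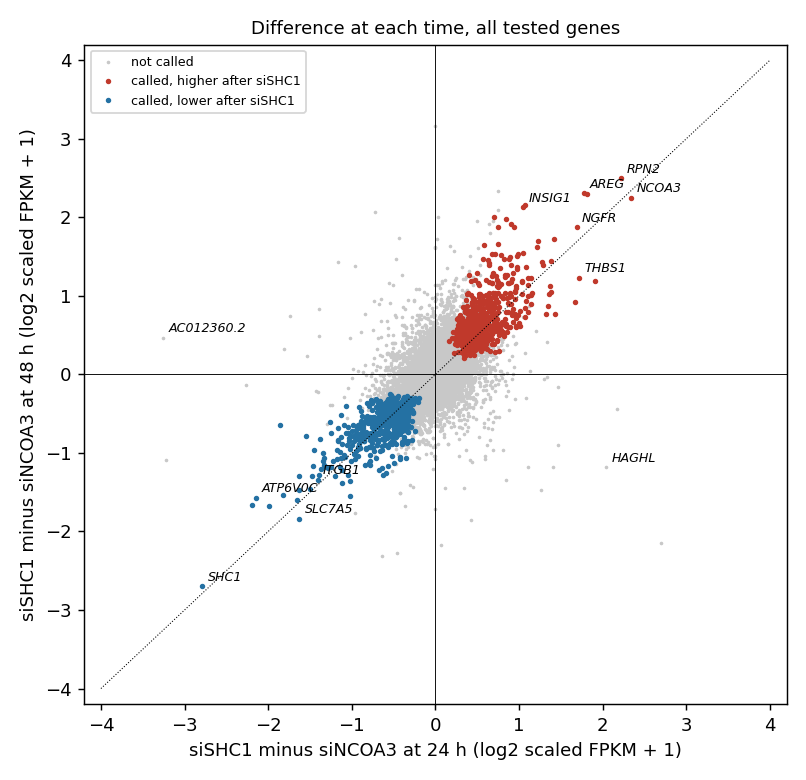
Log2 difference of siSHC1 minus siNCOA3 at 24 h (x axis) and 48 h (y axis) for all 11699 tested genes, with called genes in colour and the line of equal difference dotted. RPN2 and SHC1 lie near the line, INSIG1 above it, and AC012360.2 and HAGHL far off it without a call.

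Most called genes, 704 of 1141, differed more between the knockdowns at 48 h than at 24 h. Of the 625 genes that rose 437 differed more at 48 h, and of the 516 that fell 267 did. The standard deviation of the difference over all tested genes was 0.319 at 24 h and 0.382 at 48 h, so the wider spread at 48 h was not limited to called genes. The share of all tested genes that differed more at 48 h was not counted. Whether the 704 of 1141 stand above that share is therefore not known. The genes with at least 5 FPKM whose difference moved most between the times included AC012360.2, with 21.4 and 195 FPKM after siSHC1, against 215 and 142 FPKM after siNCOA3, and HAGHL, with 46.9 and 29.1 FPKM after siSHC1, against 10.7 and 67.9 FPKM after siNCOA3. In both the order of the siRNAs turned round between the times, and none of the 10 passed the test. Over all tested genes 6 (0.0513%) differed 2-fold in opposite directions at the 2 times.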

How the data were processed

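The 6 MDA-MB-231 libraries cover 3 siRNAs at 2 times. Trizol extraction and a stranded mRNA kit are recorded, per the labels' protocols. Named tools are Cufflinks, DESeq2 and STAR and the named build is hg19, per the submitters' processing notes, which state neither role nor version. The sources used here give no annotation, filter or strand setting. Although its name speaks of read counts, the authors' deposited table holds FPKM: 0.336% of values are whole, and low values are smaller in longer transcripts. Depth is therefore unknown, and no interval from counts is given. All 6 columns were used.

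FPKM were scaled by the median of ratios over 11042 genes, giving factors of 0.946 to 1.02. The filter kept genes reaching 1 FPKM in 2 or more libraries, which were tested on log2(scaled FPKM + 1) with limma 3.58.1 in R 4.3.3 (lmFit, eBayes with trend and robust moderation), with siRNA and time as additive factors across the 6 libraries and 2 residual degrees of freedom. Time pairs the libraries, as the labels give it. P-values were adjusted by Benjamini-Hochberg over all tested genes, with a threshold of 0.05, and the fit was tested on simulated data.

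The 25 lists (826 of 827 symbols matched) and the comparison were chosen with earlier results of these data known. Named are the targets, the 12 largest rises and the 12 largest falls that were called, averaged 5 FPKM or more and had 1 sign at both times, up to 4 members per list, every called member of a list with 6 or fewer, and the 5 genes at each end whose difference moved most over time. The 3′ UTRs (at least 30 bases, 1 transcript a gene) came from GENCODE release 29, matched to 97.8% of tested genes. That build differs from the authors', so sites carry no coordinates. Some called members of the sterol list are not reported here. Words of 7 bases in at least 50 genes were ranked by z. Promoters came from RefSeq. Plots used Python 3.11.15 with matplotlib 3.10.9. Alternatives were other scalings, filters, pseudocounts, moderation, fewer libraries and no term for time.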

Additional observations from a re-analysis of the deposited data

Results flagged for a closer look

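These values were picked out because siSHC1 lay on one side of siNCOA3 at 24 h and on the other at 48 h, on the log2 scale. With 1 library per siRNA and time, the difference between times was not tested. Among genes the differences were 1.30 at 24 h and -0.06 at 48 h for CSF2, a colony-stimulating factor, 0.24 and -0.75 for the cystine transporter SLC7A11, and 0.67 and -0.0886 for AGO2. They were -3.25 and 0.47 for AC012360.2, -0.72 and 2.07 for RP4-583P15.14, -1.81 and 0.33 for GPR157, 2.04 and -1.18 for HAGHL, 1.41 and -1.18 for ETV6, 1.11 and -1.18 for ADNP2, 0.85 and -1.35 for RNF169, and 0.35 and -1.44 for AP000304.12. None of these genes passed the test over both times.

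Among list medians the values at 24 h and 48 h were -0.0105 and 0.0327 for p160 coactivators, 0.000804 and -0.00336 for nuclear receptors, 0.143 and -0.0632 for NF-kB and cytokine genes, 0.0741 and -0.119 for NRF2 targets, and 0.0917 and -0.0738 for the RNA interference machinery. No group here has 4 or more libraries, so single libraries were not examined for standing apart.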

How the results depend on the processing

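SHC1 and NCOA3 kept their direction and their call under all alternatives run. Against 1141 genes as reported, 4 were called with no filter on low values (3693 at an unadjusted limma p under 0.05) and 448 without the term for time, that is with no replicate block, 196 higher and 252 lower, all 448 among the 1141. Leaving out a library gave 231 to 1040 calls, the fewest without siNCOA3 at 48 h, of which 209 were among the 1141; where an siRNA then has 1 library, it is assumed to vary like the others. The remaining alternatives (scaling, other filters, pseudocounts, moderation, only the 4 knockdown libraries) gave 817 to 1250. The 64 genes at least 2-fold at both times became 140 with a pseudocount of 0.1. Of list medians, that of the EGF receptor family (0.143) ranged from -0.0261 without siNCOA3 at 24 h to 0.384 without siSHC1 at 48 h. The cause of these shifts was not tested. Of 89 named genes with a call, 45 kept it whichever library was left out.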
